A study of Ovis aries with 17 samples.

Results

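Signal for 3 receptors of the transforming growth factor beta (TGF-beta) family, *ACVR1*, *ACVR2B* and *ACVRL1*, was compared across 6 immune cell subsets of sheep on 17 arrays. Each receptor was read by 1 probe, and these 3 probes were chosen by name out of 15060 probes on the array because their levels differed between the subsets. Their levels are therefore given as a description with no test. The series compared mononuclear phagocytes, the macrophages and dendritic cells (DC), of several vertebrates, and these arrays are its sheep samples. The animals were female sheep of the Prealpe breed, of an age not given in the sources used here, and are labelled as controls.

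B lymphocytes (B, 4 arrays) were sorted from spleen with an antibody to ruminant B cells, and macrophages (MP, 3 arrays) from spleen by CD14, a co-receptor for bacterial lipopolysaccharide. Plasmacytoid DC (pDC, 3 arrays) were sorted from the light cells of blood as positive for CD45RB and negative for CD11b, CD11c, CD8, the B cell antigen and TCR1, the gamma delta T cell receptor. The light cells of blood also gave XCR1- DC (CADM1lo CD172hi, 3 arrays) and XCR1+ DC (CADM1hi CD172lo, 1 array), sorted as CD11b- and CD11c+. They are named cDC2 and cDC1 here, for conventional DC. MoDC (3 arrays) came from 3 independent cultures with GM-CSF, so culture and subset cannot be told apart for them, and the names of the deposited files point to bone marrow as their source. Where a sort yielded too little RNA, that of several animals was combined. The labels do not say on which arrays, although file names mark the second cDC2 replicate and the cDC1 array as pooled, so the spread between arrays is not always that between animals. In bulk RNA, fewer cells of a type and less RNA per cell cannot be told apart.

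Ligands of this family, among them the TGF-betas, activins and bone morphogenetic proteins (BMP), signal through pairs of type I and type II receptor kinases. The type II receptor phosphorylates the type I receptor, which phosphorylates SMAD proteins that enter the nucleus with SMAD4 and act on target genes such as *ID2*. *ACVR1* encodes ALK2, a type I receptor for BMP and activin-related ligands, and *ACVRL1* encodes ALK1, a type I receptor for BMP9 and BMP10 best known from endothelial cells. *ACVR2B* encodes a type II receptor for activins, myostatin and several BMP. In macrophages and DC the family is known for its part in differentiation and in dampening inflammation.

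The probes are 60 bases long, and their letters are shown because each receptor rests on a single probe. No second probe carried the name or the source sequence of any of the 3 receptors. The *ACVR2B* probe is printed whole, with its longest run shared with a probe of another gene, on either strand, in capitals, and the *ACVR1* and *ACVRL1* probes by their first 30 bases, since their place in the transcript was not determined.
ACVR2B: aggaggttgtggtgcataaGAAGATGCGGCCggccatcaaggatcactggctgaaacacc
ACVR1: tgtggggaaaatgcattttcttcggaatta
ACVRL1: aaagttctttgaatatcaccctgtgtcaga
The longest run shared with a probe of another gene was 12 bases for *ACVR2B* and 13 bases for both *ACVR1* and *ACVRL1*. Runs of 12 bases were shared with 2 other probes for *ACVR2B*, 6 for *ACVR1* and 8 for *ACVRL1*, against a median of 7 over the 441 probes that carry a gene name.

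All values below are log2 signal relative to the 75th percentile of the array, so that 0 lies at that percentile and 1 unit is a 2-fold difference. A probe was called well above background where the scanner software called it so. The 75th percentile lay between 194 and 688 intensity units, and between 61.1% and 80.2% of spots were well above background on an array. Slides 1, 2 and 3 each held 1 array of B, pDC, MP and MoDC, whereas slide 4 held B replicate 4, the cDC2 arrays and the cDC1 array. B replicate 4 is thus the only link between cDC2 or cDC1 and the other slides. Of the markers with a named probe, *CR2*, a complement receptor of B cells, gave 18.4 to 19.0 times the 75th percentile in B and at most 0.693 times in every other subset. *TCF4*, a transcription factor of pDC and the 1 gene of 6 in their list with a probe, gave 1.64 to 3.43 times it in pDC but overlapped B (1.46 to 2.13) and cDC2 (1.44 to 1.77). A conventional DC list with a probe for 5 of 6 genes (*FLT3*, *BATF3*, *XCR1*, *CADM1* and *CLEC9A*) summed to 94.1 in cDC1, 7.83 to 9.72 in cDC2 and at most 6.79 elsewhere, and *CLEC9A* was well above background in cDC1 alone. The monocyte and macrophage markers *CD14*, *CSF1R* and *ITGAM* summed to 39.9 to 115 times it in MP, 59.1 to 108 in MoDC, 12.1 to 13.1 in cDC2, 8.19 in cDC1 and at most 1.13 in pDC and B. A T or NK list, of which 4 of 9 genes had a probe (*CD3D*, *CD3E*, *CD28* and *GNLY*), summed to 42.3 to 47.7 in pDC, against 6.72 to 9.28 in B and at most 5.29 elsewhere.

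*ACVR1* was well above background on all 17 arrays and split the subsets into a low and a high group. In B it stood at -1.88, -2.11, -2.46 and -1.93, and in pDC at -1.61, -1.25 and -1.60. In MP it stood at 0.42, 0.80 and 0.71, in MoDC at -0.17, 0.30 and 1.32, in cDC2 at 0.29, -0.06 and 0.06, and in cDC1 at -0.33. The 7 B and pDC arrays all lay below the other 10, with a gap of 0.92 between the nearest arrays and a difference of 2.17 between the means of the groups (4.50-fold). Over all 11311 genes tested, 3.25% placed the B and pDC arrays below the rest in this way.

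The order of the *ACVR1* means was MP (0.64 ± 0.20, SD, n = 3), MoDC (0.48 ± 0.76, n = 3), cDC2 (0.10 ± 0.18, n = 3), cDC1 (-0.33, n = 1), pDC (-1.49 ± 0.21, n = 3) and B (-2.10 ± 0.26, n = 4). MP and MoDC overlapped, as did MoDC and cDC2, whereas each later neighbour in the order lay apart from the next. The difference between MP and MoDC (0.16) lay within the spread of MoDC, and it turned to -0.14 when arrays were scaled by their median and to -0.16 without MoDC replicate 1. Within slides 1, 2 and 3, MP exceeded B by 2.30, 2.91 and 3.17, and exceeded pDC by 2.03, 2.05 and 2.31. On slide 4, the cDC2 mean exceeded the B array by 2.03 and the cDC1 array exceeded it by 1.60. pDC lay above B on each of slides 1 to 3, by 0.27, 0.86 and 0.86.

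*ACVR2B* was highest in the blood conventional DC and was well above background on 14 of 17 arrays. It stood at -1.77, -1.64 and -1.59 in cDC2 and at -1.58 in cDC1. In MP it stood at -3.88, -2.45 and -2.42, in pDC at -3.70, -4.63 and -3.56, in MoDC at -3.49, -4.44 and -5.32, and in B at -5.31, -4.29, -5.55 and -4.75. B replicate 3, MP replicate 1 and MoDC replicate 3 were not well above background. The 4 cDC2 and cDC1 arrays all lay above the other 13, with a gap of 0.65 and a difference of 2.49 between the group means, an arrangement that 3.35% of all genes tested shared.

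The *ACVR2B* order was cDC1, cDC2 (-1.67 ± 0.09, n = 3), MP (-2.92 ± 0.83, n = 3), pDC (-3.97 ± 0.58, n = 3), MoDC (-4.42 ± 0.91, n = 3) and B (-4.97 ± 0.57, n = 4). The cDC1 value lay 0.01 above the highest cDC2 array, less than the SD of cDC2, and cDC2 lay apart from MP by 1.25 between means. From MP downwards, each neighbour overlapped the next. Since all conventional DC arrays were on slide 4, the B array of that slide is the direct comparison, and cDC2 exceeded it by 3.08 and cDC1 by 3.18. That B array, at -4.75, lay within the range of the B arrays of the other slides. With a background correction on the raw spot and background signals (normexp), the conventional DC arrays no longer stood apart, the gap being -0.21 and the difference between cDC2 and MP 0.50.

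*ACVRL1* was highest in MP and had the widest range of the 3 receptors. In MP it stood at 2.91, 1.72 and 1.71. It stood at -0.08, -0.45 and 0.03 in cDC2, at -0.39 in cDC1 and at -1.74, -1.68 and 0.26 in MoDC. In B it stood at -0.20, -2.78, -4.21 and -0.76, and in pDC at -6.09, -7.14 and -4.52, where replicate 3 alone was well above background. The 3 MP arrays all lay above the other 14, with a gap of 1.46 and a difference of 4.24 between the group means, 2 of the 14 arrays being dim, and 3.49% of all genes tested had this arrangement.

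The *ACVRL1* order was MP (2.11 ± 0.69, n = 3), cDC2 (-0.17 ± 0.26, n = 3), cDC1, MoDC (-1.05 ± 1.13, n = 3), B (-1.99 ± 1.85, n = 4) and pDC (-5.91 ± 1.32, n = 3). MP lay apart from cDC2 by 2.28 between means. This difference rose to 3.91 with slide as a block, where the B arrays alone link these subsets. The values of cDC2, cDC1, MoDC and B overlapped from neighbour to neighbour, and pDC lay below B with a gap of 0.31. Within slides 1, 2 and 3, MP exceeded MoDC by 4.64, 3.40 and 1.46, and exceeded B by 3.11, 4.50 and 5.93. On slide 3, the 1 on which pDC was well above background, MoDC exceeded pDC by 4.77. cDC2 exceeded the B array of slide 4 by 0.60 and cDC1 by 0.37.

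**Figure D1:**
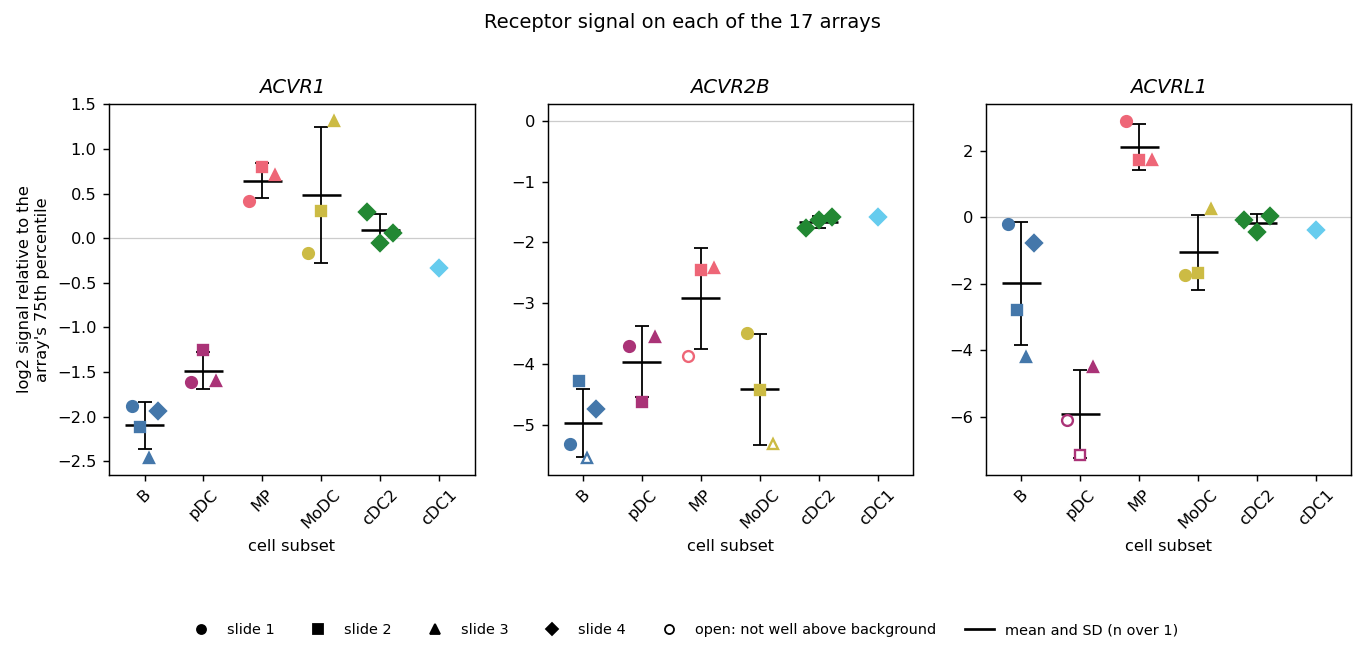
Log2 signal of the 3 receptor probes relative to the 75th percentile of each array (vertical axis) by cell subset (horizontal axis), 1 point an array, with the slide as the symbol, open symbols for arrays not well above background, and the mean and SD where a subset has several arrays. *ACVR1* is low in B and pDC, *ACVR2B* is highest in cDC2 and cDC1 at -1.77 to -1.58, and *ACVRL1* is highest in MP and spans 4.01 units among the B arrays.

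The 4 B arrays spanned 4.01 units of *ACVRL1* signal, or 16.1-fold, against 0.58 units of *ACVR1* and 1.26 of *ACVR2B*. B replicates 1 and 4 were high and replicates 2 and 3 low. *CSF1R*, the receptor of the macrophage growth factor CSF1, was at -3.81 and -3.43 on replicates 1 and 4 and not well above background on replicates 2 and 3. *ITGAM*, which encodes CD11b, stood at -3.98, -4.86, -5.37 and -4.11 on B replicates 1 to 4, the third of them not well above background. *CD14* stood at -0.80, -1.52, -1.14 and -1.19. The 3 genes summed to 0.399 to 0.708 times the 75th percentile in B. The part of such cells in the *ACVRL1* values of B was not tested. None of 7 endothelial marker genes, among them *PECAM1*, *VWF* and *ENG*, had a named probe, so endothelial cells in the spleen sorts were not measured.

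The receptors differed in the named genes whose profile over the 17 arrays was most like theirs, among 267 named genes that passed the filter on dim probes. For *ACVR1* these were *CD14* (Pearson r = 0.96) and *IL18*, an inflammatory cytokine (r = 0.91). No other gene of all those tested had a higher r with *ACVR1* than *CD14*, whereas 24 had a higher r with *ACVR2B* than *FLT3* and 6 with *ACVRL1* than *CSF1R*. For *ACVR2B* they were *FLT3*, the growth factor receptor of DC (r = 0.85), *UNC93B1*, a chaperone of endosomal Toll-like receptors (r = 0.82), and *SFN*, a 14-3-3 protein (r = 0.77). For *ACVRL1* they were *CSF1R* (r = 0.93), *AHR*, the aryl hydrocarbon receptor (r = 0.87), and *MX2*, an interferon-induced gene (r = 0.86). Spearman's rho was 0.95 for *CD14*, 0.86 for *FLT3* and 0.93 for *CSF1R*, and without the 2 arrays farthest from the median of the like gene r was 0.95, 0.84 and 0.91. These values describe 17 arrays that fall into subsets and share slides, and *CD14* was the marker by which MP were sorted. *CSF1R* was well above background on 11 arrays. Between the receptors, r was 0.47 for *ACVR1* and *ACVR2B*, 0.67 for *ACVR1* and *ACVRL1*, and 0.36 for *ACVR2B* and *ACVRL1*.

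*CD14* and *ACVR1* parted within the high group. *CD14* stood at 6.12 ± 0.78 in MP, 6.21 ± 0.47 in MoDC, 3.63 ± 0.06 in cDC2 and 3.02 in cDC1, so cDC2 lay apart from MoDC in *CD14* while the same subsets overlapped in *ACVR1*. *FLT3* stood at 1.35 ± 0.13 in cDC2 and 2.69 in cDC1 and was lowest in B (-4.71 ± 0.77), with pDC (-0.82 ± 0.58), MP (-1.20 ± 0.45) and MoDC (-2.48 ± 0.57) between them. *CSF1R* stood at -0.43 ± 0.33 in MP and at -2.86 ± 0.64 in cDC2, and was not well above background on any pDC array or on the cDC1 array.

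**Figure D2:**
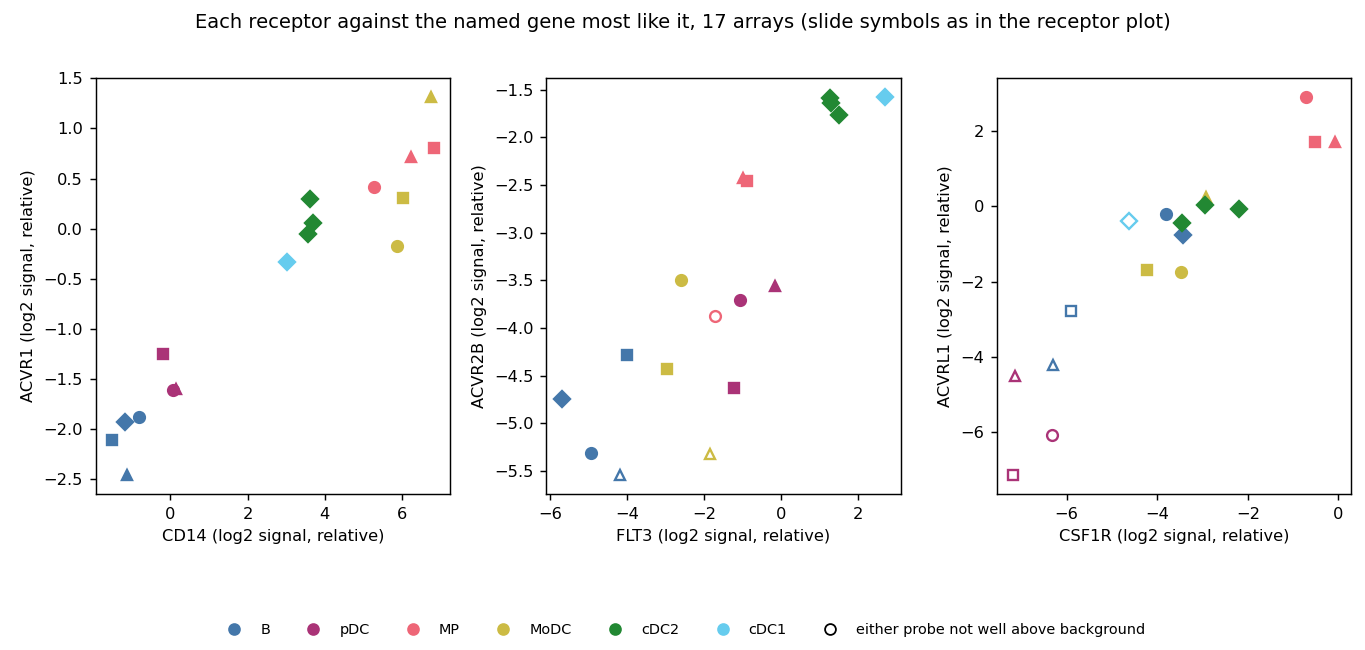
Log2 signal of each receptor (vertical axis) against that of the named gene most like it (horizontal axis), both relative to the 75th percentile, 1 point an array, coloured by subset, with open symbols where either probe was not well above background. By SD within a subset, *ACVR1* is the least spread receptor except in cDC2, where the SD is 0.09 for *ACVR2B* and 0.18 for *ACVR1*. The MoDC arrays are the most spread for *ACVR1* (SD 0.76). Over 17 arrays, r is 0.96 for *CD14*, 0.85 for *FLT3* and 0.93 for *CSF1R*.

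The rest of the pathway was read from a list of 95 genes. Named probes were found for 30 of them, the 3 receptors included, while 65 had none and were not analysed here, among them the TGF-beta receptors *TGFBR1* and *TGFBR2* and the co-receptor endoglin (*ENG*), a partner of ALK1. Of the others, 17 passed the filter, which asked that all arrays of some subset read the probe well above background, and 10 did not. A moderated F test across the 5 subsets with replicates (limma, Benjamini-Hochberg over all 11311 genes, called at an adjusted p under 0.05) called 12 of the 17. Of all genes tested, 56.4% were called. The share of the list was 70.6%. The median range of the subset means was 3.18 for the 17 genes and 1.69 for all genes. The filter admits a gene through the subset where it is high, so these counts describe the genes that passed and not the list. Differences from a subset where such a gene is dim, among them those of *INHBA*, *BMP6*, *BMP7*, *BMPR2* and *BAMBI*, are favoured by this selection.

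By pairs of subsets in the same fit, B and pDC differed in 2 of the 17 genes, *BAMBI* and *FST*, both higher in pDC (9.63% of all genes were called). MP differed from cDC2 in 2 (11.6% of all) and from MoDC in 4 (27.7%). MoDC differed from B in 9 (39.8%), from cDC2 in 9 (36.5%) and from pDC in 7 (35.5%). pDC differed from MP in 8 (27.7%) and from cDC2 in 8 (21.4%), and B differed from MP in 6 (26.6%) and from cDC2 in 3 (25.3%). In all, 58 pair differences were called. With slide as a block, the 36 among B, pDC, MP and MoDC were all called again, but 5 of the 22 that involve cDC2 were, all in the same direction, since the B array of slide 4 then carries that comparison alone. With normexp, 25 of the 58 were called again, 16 of the 36 and 9 of the 22.

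**Figure D3:**
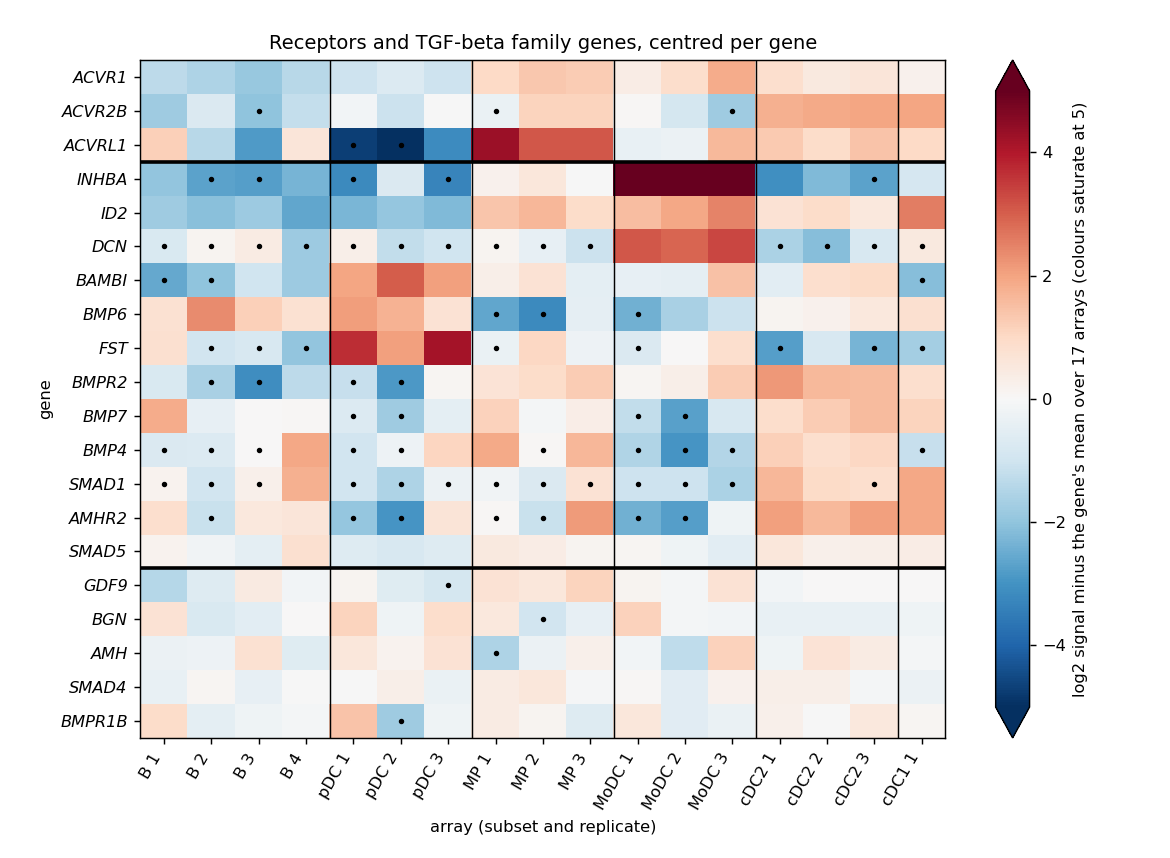
Log2 signal of the 3 receptors (top), the 12 pathway genes called by the F test (middle) and the 5 not called (bottom) on each of the 17 arrays (columns, by subset and replicate), minus the mean of each gene over the arrays, with colours saturating at 5 units and dots where the probe was not well above background. The darkest red block, furthest above its mean, is *INHBA* in MoDC, and *SMAD4* and *BMPR1B* show no block by subset.

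*INHBA*, the beta A subunit of which activin A is a dimer, had the widest range of the ligands. It stood at 4.90, 6.24 and 5.86 in MoDC, at -2.45, -2.11 and -2.71 in MP, and at -3.38 or below on every other array. MoDC exceeded MP by 8.09 ± 0.57 (SE; 272-fold, adjusted p = 2.68e-07 by limma). MP in turn exceeded B by 2.69 ± 0.54 (adjusted p = 0.0016) and pDC by 2.66 ± 0.57 (adjusted p = 0.00276), calls that were lost with normexp (adjusted p = 0.0822 and 0.151). It was well above background on 2 of 4 B and 1 of 3 pDC arrays. The dim B arrays lay above the lowest signal so called on their arrays, and MP was 6.46-fold higher than B as read. With the dim pDC arrays raised to that signal, MP was at least 4.48-fold higher than pDC. A second probe of the same letters gave 5.72 ± 0.70 in MoDC and -2.39 ± 0.27 in MP. On the same MoDC arrays *ACVR1* stood at -0.17 to 1.32 and *ACVR2B* at -5.32 to -3.49.

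The *INHBA* probe and the probe of *INHBB*, the beta B subunit, are shown because they share the longest run, in capitals, that either has with a probe of another gene.
INHBA: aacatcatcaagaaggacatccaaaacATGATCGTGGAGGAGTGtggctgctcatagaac
INHBB: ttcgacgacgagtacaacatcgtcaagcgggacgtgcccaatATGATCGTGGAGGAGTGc
This run is 17 bases long. The *INHBB* probe stood at -4.75, -8.46 and -7.53 in MoDC and was not well above background there, although *INHBA* was at its highest. It was well above background on pDC replicate 1 only. *INHA*, the alpha subunit of inhibins, *BMP2*, *BMP3*, *BMP15*, *MSTN* (myostatin) and *TGFB1* did not pass the filter either. *TGFB1*, the most widely expressed TGF-beta, failed the background call on all 17 arrays, at -8.01 to -6.06. It had 1 probe, and whether that probe reads the gene was not tested.

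*BMP6*, a BMP known from iron regulation, was lowest in MP and MoDC, the subsets in which *INHBA* was highest. It stood at -2.91, -1.31, -2.50 and -2.92 in B, at -1.59, -1.94 and -2.95 in pDC, at -3.55, -3.44 and -3.15 in cDC2 and at -2.87 in cDC1. In MP it stood at -6.26, -6.86 and -4.13, of which replicate 3 alone was well above background, and in MoDC at -6.06, -5.28 and -4.76, of which replicate 1 was not. B exceeded MP by 3.34 ± 0.59 (adjusted p = 0.000638) and MoDC by 2.96 ± 0.59 (adjusted p = 0.00105), and pDC exceeded MP by 3.59 ± 0.63 (adjusted p = 0.000579) and MoDC by 3.21 ± 0.63 (adjusted p = 0.00109). With the dim arrays set at the lowest signal called well above background, B and pDC exceeded MP at least 3.95-fold and at least 4.69-fold. With normexp both differences from MoDC were called (adjusted p = 0.0158 and 0.00974) and both from MP were not (0.179 and 0.093). A second probe of the same letters had r = 0.985 with it and differed by a median of 0.17 on the 14 arrays where both were well above background.

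Of the other ligands, *BMP7* was lower in MoDC (-6.14 ± 1.01) than in cDC2 (by 2.83 ± 0.61, adjusted p = 0.00267), MP (by 2.03 ± 0.61, adjusted p = 0.0223) and B (by 1.95 ± 0.57, adjusted p = 0.013), 1 MoDC array of 3 being well above background. With the dim MoDC arrays at the lowest signal so called, it was at least 4.97-fold, 2.85-fold and 2.71-fold lower. With normexp the difference from cDC2 was called (adjusted p = 0.0368), but those from MP and B (0.0579 and 0.117) and the F test (0.109) were not. *BMP4* was called as well (adjusted p = 0.0109, but 0.173 with normexp and 0.0569 without MoDC replicate 2). It passed the filter through cDC2 alone, which built a difference into its selection, and its other 2 probes passed the background call nowhere, so its level is uncertain. *GDF9* and *AMH*, best known from the ovary and testis, were not called across the subsets (adjusted p = 0.0732 and 0.507), although *GDF9* was higher in MP than in B (by 1.24 ± 0.40, adjusted p = 0.0311) and pDC (by 1.24 ± 0.43, adjusted p = 0.0419), calls lost with normexp (0.231 and 0.280).

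Among the other receptors, *BMPR2*, the type II receptor that works with ALK1 and ALK2 for BMP, was high in the myeloid subsets. It stood at -2.48, -3.01 and -3.07 in cDC2, at -3.97, -3.74 and -3.37 in MP, at -4.56, -4.35 and -3.39 in MoDC and at -3.80 in cDC1. In B it stood at -5.39, -6.25, -7.76 and -5.97 and in pDC at -5.80, -7.51 and -4.55, and was not well above background on B replicates 2 and 3 and pDC replicates 1 and 2. B and pDC were thus low as for *ACVR1*, except that pDC replicate 3 (-4.55) lay level with MoDC replicate 1 (-4.56), so that the groups touched. *BMPR2* passed the filter through MP, MoDC, cDC2 and cDC1 and not through B or pDC, so a difference between these groups was favoured by its selection. It was higher in cDC2 than in B by 3.49 ± 0.62 (adjusted p = 0.000929, 0.0785 with slide as a block). In MP it was higher than in B by 2.65 ± 0.62 (adjusted p = 0.00502, 0.0623 with normexp). With the dim B arrays set at the lowest signal called well above background, these differences were at least 6.67-fold and at least 3.74-fold.

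*AMHR2*, the type II receptor of anti-Müllerian hormone, stood at -2.68, -3.09 and -2.66 in cDC2 and at -2.78 in cDC1. It was higher in cDC2 than in MoDC (by 3.68 ± 0.95, adjusted p = 0.00827) and pDC (by 3.31 ± 0.95, adjusted p = 0.0231, 0.0912 with slide as a block and 0.134 with normexp), in each of which 1 array of 3 was well above background. With the dim arrays set at the lowest signal so called, these differences were at least 6.36-fold and at least 4.15-fold. It passed the filter through cDC2 and cDC1 alone, so a difference between these and other subsets was built into its selection. The F call (adjusted p = 0.0225) was lost without MoDC replicate 2 (0.053), cDC2 replicate 1 (0.0591) or cDC2 replicate 3 (0.0603). Its probe shared runs of 12 bases with 16 other probes, above the median of 7. The longest run it shared with a probe of another gene was 17 bases. Whether the signal is that of *AMHR2* alone was not tested. The type I receptor *BMPR1B* was not called (adjusted p = 0.966), with means between -4.43 and -3.98. Of the receptors that did not pass the filter, *ACVR1B* was well above background on MP replicate 1 alone (-3.61), *BMPR1A* on no array, and the 2 probes of *ACVR2A*, the closest relative of *ACVR2B*, on 6 and 4 arrays, with no subset complete.

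*BAMBI*, a decoy receptor without a kinase domain, and *FST*, which encodes follistatin, a secreted protein that binds activins, were both highest in pDC. *BAMBI* stood at -1.72, -0.68 and -1.64 in pDC, between -4.22 and -2.23 in MP, MoDC and cDC2, at -4.68 or below in B, and was not well above background in cDC1. It was higher in pDC than in B by 4.18 ± 0.54 (at least 16.9-fold with the 2 dim B arrays set at the lowest signal called well above background, adjusted p = 0.000232), MP by 2.17 ± 0.58 (adjusted p = 0.0113), MoDC by 2.14 ± 0.58 (adjusted p = 0.00986) and cDC2 by 1.92 ± 0.58 (adjusted p = 0.0297, 0.456 with slide as a block). B lay below MP, MoDC and cDC2 as well (by 2.01, 2.04 and 2.27, adjusted p = 0.0122, 0.00779 and 0.00693), calls lost with normexp (adjusted p = 0.209, 0.268 and 0.215). A probe of other letters was also highest in pDC (-2.65 ± 0.39), with means of -4.13 or below elsewhere.

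*FST* stood at -1.16, -2.80 and -0.69 in pDC and at -3.84 or below on the other 14 arrays, on 8 of which it was not well above background. It passed the filter through pDC alone, so a difference between pDC and other subsets was built into its selection. The strand of its only probe was not established. Its signal was higher in pDC than in B by 4.05 ± 0.69 (adjusted p = 0.0017), MP by 3.17 ± 0.74 (adjusted p = 0.00465), MoDC by 3.26 ± 0.74 (adjusted p = 0.00297) and cDC2 by 5.27 ± 0.74 (adjusted p = 0.000161, 0.175 with slide as a block). B was read well above background on 1 array of 4 and cDC2 on 1 of 3, and with the dim arrays set at the lowest signal so called the differences were at least 13.4-fold and at least 17.6-fold. The summed T or NK markers were also highest in pDC, at 42.3 to 47.7 times the 75th percentile, and *CD28* was the 1 gene of the 4 not well above background on every pDC array. The sort of pDC left out cells with TCR1 or CD8. The part of T or NK cells in the *BAMBI* and *FST* values was not tested.

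**Figure D4:**
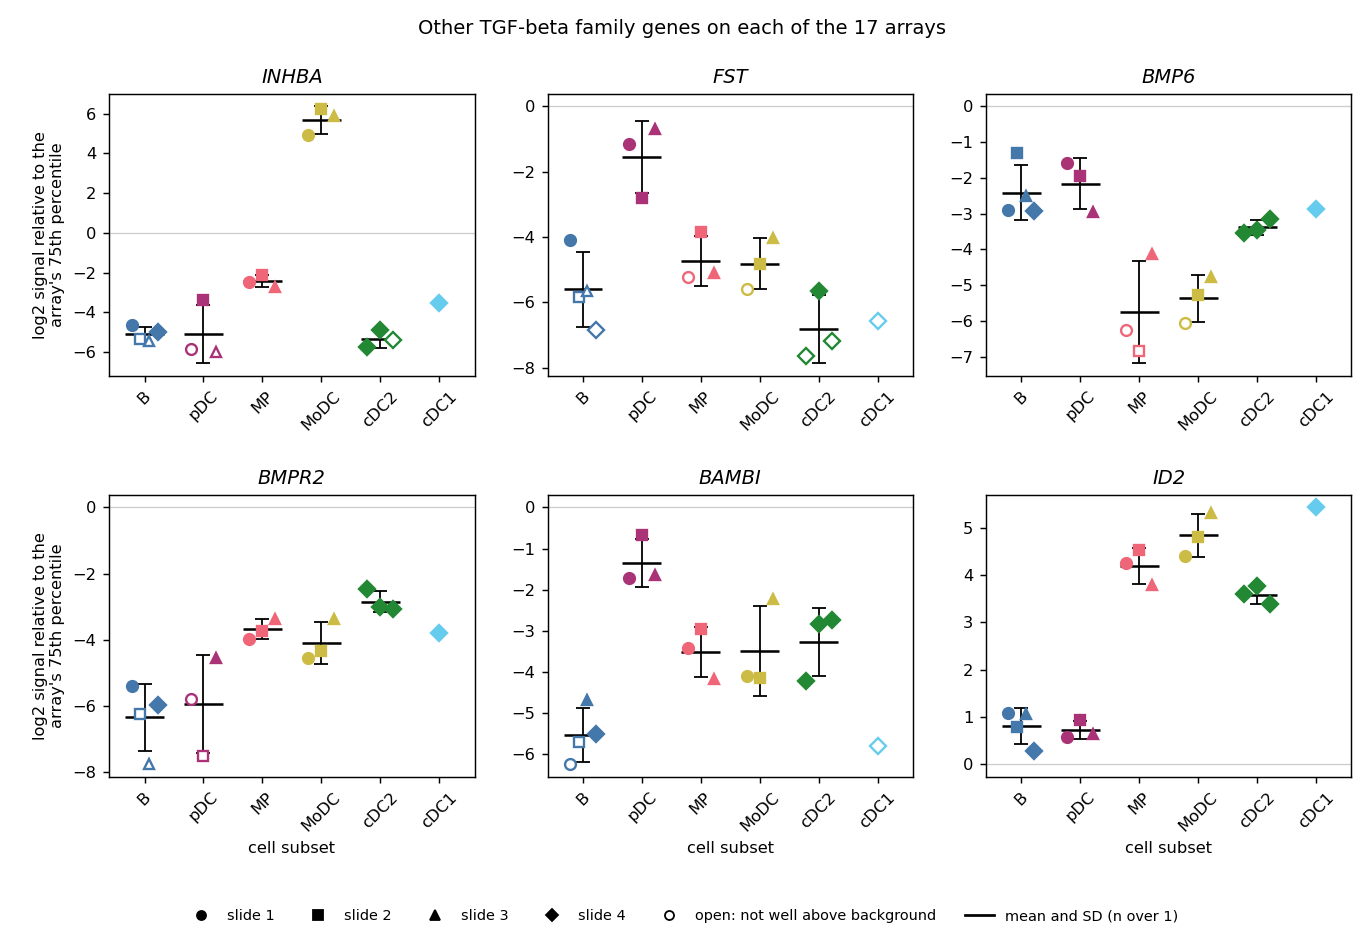
Log2 signal of 6 other genes of the family relative to the 75th percentile of each array (vertical axes, scaled per gene) by subset (horizontal axes), with points, symbols and error bars as in the plot of the receptors. *INHBA* stands above 4 units in MoDC alone, *FST* and *BAMBI* are highest in pDC, *BMP6* is lowest in MP and MoDC, and *BMPR2* and *ID2* are low in B and pDC.

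*DCN*, which encodes decorin, a matrix proteoglycan that binds TGF-beta, was well above background on the 3 MoDC arrays alone (-3.46, -3.66 and -3.20). It passed the filter through them alone, so a difference between MoDC and other subsets was built into its selection. It was at least 5.04-fold higher in MoDC than in B, at least 3.64-fold than in pDC, at least 2.64-fold than in MP and at least 5.70-fold than in cDC2. Each bound takes the dim subset at the lowest signal called well above background on its arrays. The limma fit used the dim values as read and did not test these bounds (adjusted p = 8.25e-05, 0.000121, 0.000402 and 3.52e-05). The difference from cDC2 was lost with slide as a block (adjusted p = 0.0657). With normexp all 4 differences (adjusted p = 0.212, 0.338, 0.545 and 0.219) and the F test (0.521) were lost. *DCN* is also the 1 gene of 5 in the fibroblast or stroma list with a probe, and stromal cells in the cultures were not tested. *BGN*, which encodes the related biglycan, was not called (adjusted p = 0.338).

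Of the SMAD proteins, *SMAD4*, the partner shared by all branches, stood between -2.13 and -0.99 on all 17 arrays and was not called (adjusted p = 0.511). *SMAD5*, which BMP receptors such as ALK1 and ALK2 phosphorylate, was called (adjusted p = 0.0445), with a range of 1.06 between the means of cDC2 (-2.88 ± 0.17) and pDC (-3.94 ± 0.08), but was not called under 16 of 24 alternative settings. *SMAD1*, of the same branch, was called (adjusted p = 0.0138) although it was well above background on 4 arrays, B replicate 4, cDC2 replicates 1 and 2 and cDC1, all of slide 4. It passed the filter through the single cDC1 array, where it was highest, and the call was lost with slide as a block (adjusted p = 0.0677), quantile scaling (0.0651) and normexp (0.480).

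*ID2*, a target of BMP signals in many cells and a regulator of DC development, stood at 0.27 to 1.09 in B, at 0.57 to 0.94 in pDC, at 3.79 to 4.53 in MP, at 4.40 to 5.33 in MoDC, at 3.39 to 3.78 in cDC2 and at 5.44 in cDC1. It was higher in MP, MoDC and cDC2 than in B by 3.39 ± 0.30, 4.04 ± 0.30 and 2.79 ± 0.30, and than in pDC by 3.48 ± 0.32, 4.13 ± 0.32 and 2.87 ± 0.32, all with an adjusted p of 2.59e-05 or less. MoDC exceeded cDC2 by 1.26 ± 0.32 (adjusted p = 0.00733), which was lost with slide as a block (0.544). As for *ACVR1*, every B and pDC array lay below every other array, an arrangement that 3.25% of all genes tested shared.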

How the data were processed

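RNA of sorted or cultured sheep cells was amplified, labelled with Cy3 and hybridised by the authors to a custom ovine array, 1 sample an array. They read the spots with Agilent Feature Extraction, version 10.7.3.1 on 12 arrays and 10.10.1.1 on the 5 arrays of slide 4 per the file headers, so version and slide cannot be told apart. The deposited intensity is background-corrected, linear and not normalized between arrays. The deposited series table of the authors holds log2 values. Its rows carry no probe name and were matched by case-insensitive order of probe names (r of 0.919 to 0.971 with the own array), and it served as an alternative.

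Control spots (536 of 15744) and outlier flags (273) were left out. The processed signal was taken as log2 minus the 75th percentile of the array, spots of a probe were averaged, and 1 probe a gene, that of the highest sum, was kept where most spots passed the software's background call on each array of some subset. Names came from RefSeq accessions of ARS-UI_Ramb_v3.0 for 301 probes and from the files for 140, and no coordinates were used. limma 3.58.1 in R 4.3.3 fitted subset means over 11311 genes. The test was also run on simulated data with independent noise on each array. These held no slide effect, so that check does not cover arrays that share a slide. The number of arrays limits the precision, and p-values cover the spread between arrays.

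Named were the 3 receptors, every gene of the pathway list with a probe, and for each receptor the 3 named genes of highest r, of which 1 is not reported here. The members and lists were chosen with earlier results of these data known. Replicate numbers mark shared slides for B, pDC, MP and MoDC, whose same-numbered deviations correlated at 0.101 to 0.561, but not for cDC2 (-0.151 to 0.0914). Alternatives were quantile or median scaling, normexp (offset 50, median signals, as 1 slide lacked mean signals), the series table, slide or replicate blocks, no filter, the mean of all probes, and leaving out each array.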

Additional observations from a re-analysis of the deposited data

Results flagged for a closer look

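*AMHR2* in B was picked out because 1 array lay far from the other 3. B replicate 2 stood at -5.83 and was not well above background, while replicates 1, 3 and 4 stood at -3.87, -4.16 and -4.11, a gap of 0.85 of the whole range of the 4 arrays. It was the 1 gene of 20 looked at in B that did so, and chance alone picks out about 1 group in 20.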

How the results depend on the processing

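The count of 12 pathway genes called across the subsets fell to 7 with normexp, all of them among the 12. It stood between 11 and 13 with quantile or median scaling, the series table, either block, no filter or the mean of all probes, and between 9 (without MoDC replicate 2) and 13 (without B replicate 3) when 1 array was left out. With the replicate block it was 12, the same genes, and this block ended 2 of the 58 pair calls, *BMPR2* between pDC and MoDC (adjusted p = 0.054) and *SMAD1* between B and MoDC (0.0612). The *ACVR1* difference of MP minus MoDC turned from 0.16 to -0.14 with median scaling and ranged from -0.16 to 0.58 when 1 array was left out. The *ACVRL1* difference of MP minus cDC2 rose to 3.91 with the slide block and ranged from 1.88 to 2.48 with 1 array left out, and the *ACVR2B* difference of cDC2 minus MP from 0.77 to 1.50. With the slide block, the B arrays are the only link between MP and cDC2, and they spanned 4.01 units of *ACVRL1* signal. The cause of the other shifts was not tested. *BMPR1B*, not called in any setting run, turned in its cDC2 minus pDC difference to -0.075 with normexp and -0.0074 in the series table, and ranged from -0.35 (without pDC replicate 2) to 1.25 (without pDC replicate 1) with 1 array left out. Over the 17 genes and 24 alternatives, 376 of 408 F tests stayed on their side of the threshold. Median scaling moved the median difference of all genes by up to 0.51, between MoDC and cDC2. Dim probes such as *SMAD1*, *DCN* and *BMP4* depend on the background correction, and the single cDC1 array has no spread.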
